A study of Mus musculus with 24 samples.

Results

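The 10 transcripts described here are known or reported substrates of the RNase of IRE1, cut in a process called regulated IRE1-dependent decay (RIDD): Bloc1s1, Scara3, Hgsnat, Col6a1, Pdgfrb, Pmp22, Sparc, Tapbp, Itgb2 and Ergic3. They were taken by name as transcripts the enzyme is known to cut, and make up 10 of the 38887 genes in the count table. All 10 had enough counts to be tested. IRE1 is a stress sensor of the endoplasmic reticulum (ER) membrane that carries an RNase on its cytosolic side. The RNase removes a short intron from Xbp1 mRNA, and the spliced mRNA encodes the transcription factor XBP1s, which drives genes of ER folding, secretion and ER-associated degradation. The same RNase also cuts other mRNAs that are translated at the ER, which is RIDD. In dendritic cells (DCs) lacking XBP1, IRE1 is known to be overactive, and RIDD of transcripts such as Tapbp and Itgb2 has been described there.

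RNA sequencing was done on DCs grown from mouse bone marrow. The 6 groups held 4 samples each: IRE1α knockout (KO) cells treated with Zymosan, with LPS or left untreated, and wild-type (WT) cells with the same 3 conditions. Zymosan is a yeast cell wall preparation and LPS is a bacterial cell wall component, and both activate DCs. The labels do not give how IRE1α was deleted, in which cells, the strain or age of the mice, the dose or duration of treatment, or whether replicates were separate mice, so p-values measure the spread between these samples, which may be technical.

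Total counts were 32223256 to 46927434 per sample. Ern1, the gene of IRE1α, averaged 51.4 ± 3.0 CPM in untreated KO samples and 41.6 ± 1.5 CPM in untreated WT samples (SD, n = 4 each; CPM is the count relative to the scaled library total, in the usual per-1000000 unit), and it was higher in KO under all 3 conditions. Counts over the whole gene cannot show whether part of it was deleted, so Ern1 does not check the labels. In 5 of the 6 groups the closest samples were replicates 1 and 2 and replicates 3 and 4. Over all 6 groups the chi-square per gene between such pairs was 1.91 to 8.03, against 6.57 to 23.8 between the other pairs. The exception was the WT LPS group, with replicates 3 and 4 at 8.03 and replicates 2 and 3 at 6.57. Because of the close pairs, genotype differences are also given with each of these pairs summed to 1 value in all 6 groups, which leaves 2 values per group. Among the 8 listed markers of the labelled cell type, Itgax, the CD11c gene, was at a mean of 1051 to 1309 CPM. H2-Aa, an MHC class II gene, was at 1232 to 1762 CPM in KO groups and 939 to 1361 CPM in WT groups. Only 7 of the 8 had enough counts to be tested. In each condition 4 of them were called higher in KO and 1, Flt3, lower. Eosinophil markers differed by genotype: the sum over the 6 listed was 20.3 to 31.01 CPM across the 12 KO samples and 698 to 1146 CPM across the 12 WT samples. Of the 5 tested, 4 were called lower in KO in untreated and Zymosan samples and 5 in LPS samples. Their part in the genotype differences of the substrates was not tested. In bulk samples, fewer cells of a type and less RNA per cell cannot be told apart.

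The RNase cuts within the loop of a stem-loop, and the loops of Xbp1 have the 7-base pattern CNGCNGN, which often holds CTGCAG in decay substrates. The reference transcript of each member (GENCODE M21, GRCm38, the same assembly as mm10) was searched on its sense strand for this loop closed by a perfect stem of at least 4 pairs, with G-U pairs allowed. The sequences that follow show the check on Xbp1 and, of the loops found in members, those that hold CTGCAG, have the longest Watson-Crick stem or lie in Hgsnat, 5′ to 3′, with the loop in capitals and the paired stem in lower case.
Xbp1, first loop: ctgagtCCGCAGCactcag
Xbp1, second loop: tgcacctCTGCAGCaggtgca
Bloc1s1: gcagCTGCAGTctgc
Scara3: gggccCTGCAGAggccc
Tapbp: ggcttcCAGCCGTgaagcc
Pmp22: atggCTGCAGTctgt
Hgsnat: tcctgCAGCGGTtggga

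The search found both known Xbp1 loops, in exon 4 of 5 at chr11:5524270-5524288 and chr11:5524295-5524315 (mm10, plus strand). It also returned another Xbp1 match, not shown, with 5 pairs including G-U, at chr11:5524262-5524278, which overlaps the first loop. The Bloc1s1 loop lies in the coding sequence of exon 4 of 4 at chr10:128920007-128920021 (minus strand), with a stem of 4 Watson-Crick pairs. In Scara3 the loop lies in the 5′ UTR, in exon 1 of 6 at chr14:65953517-65953533 (minus strand), with 5 Watson-Crick pairs. The Tapbp stem had 6 Watson-Crick pairs, in the coding sequence of exon 4 of 8 at chr17:33925710-33925728 (plus strand), but its loop lacks CTGCAG. Pmp22 and Hgsnat had loops in coding exons whose stems rest on G-U pairs, at chr11:63151120-63151134 (plus strand, 4 pairs) and chr8:25955743-25955759 (minus strand, 5 pairs). Not shown are longer stems with G-U pairs in Itgb2 (10 pairs) and Col6a1 (7 pairs), whose stem-loops span exon junctions, a second Itgb2 loop, and a second loop each of Bloc1s1, Pmp22 and Tapbp. A stem of at least 4 pairs was found in 8 of the 10 members, and in 33.7% of the transcripts of 12594 tested genes; Sparc and Ergic3 had none. With Watson-Crick pairs only and at least 5 pairs, Scara3 and Tapbp kept a match, against 3.03% of all transcripts and 3.31% and 2.63% of transcripts within 10% of the length of Scara3 and Tapbp. CTGCAG itself is common: 9 of the 10 members held it, and so did 85.2% of all transcripts. These matches describe letters in a reference transcript and do not show where a transcript is cut. No sequence is shown for Pdgfrb.

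The 10 substrates covered a wide range of levels. Per kilobase of exon, Itgb2 was the highest in every group, at a mean of 589 to 665 CPM per kb in KO groups and 518 to 624 CPM per kb in WT groups. Tapbp came next, at 69.0 CPM per kb in untreated KO samples and 70.1 in untreated WT samples. In untreated samples of both genotypes Hgsnat (27.1 CPM per kb in KO and 34.4 in WT) and Ergic3 (22.4 and 23.5) followed. Bloc1s1 and Pmp22 came after them with overlapping levels, at 17.4 and 16.7 CPM per kb in untreated KO samples and 16.3 and 18.2 in untreated WT samples. Scara3 was far lower, at 0.747 CPM per kb in untreated KO samples and 0.340 in untreated WT samples. Pdgfrb, Col6a1 and Sparc were the lowest, with untreated means of 0.0921 to 0.141 CPM per kb in KO and 0.0712 to 0.143 in WT, and Sparc and Col6a1 overlapped in every group. The counts behind these values ran from 2 to 37 per sample for Sparc and 9 to 34 for Col6a1, so only large differences of these genes could be detected at this depth.

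**Figure D1:**
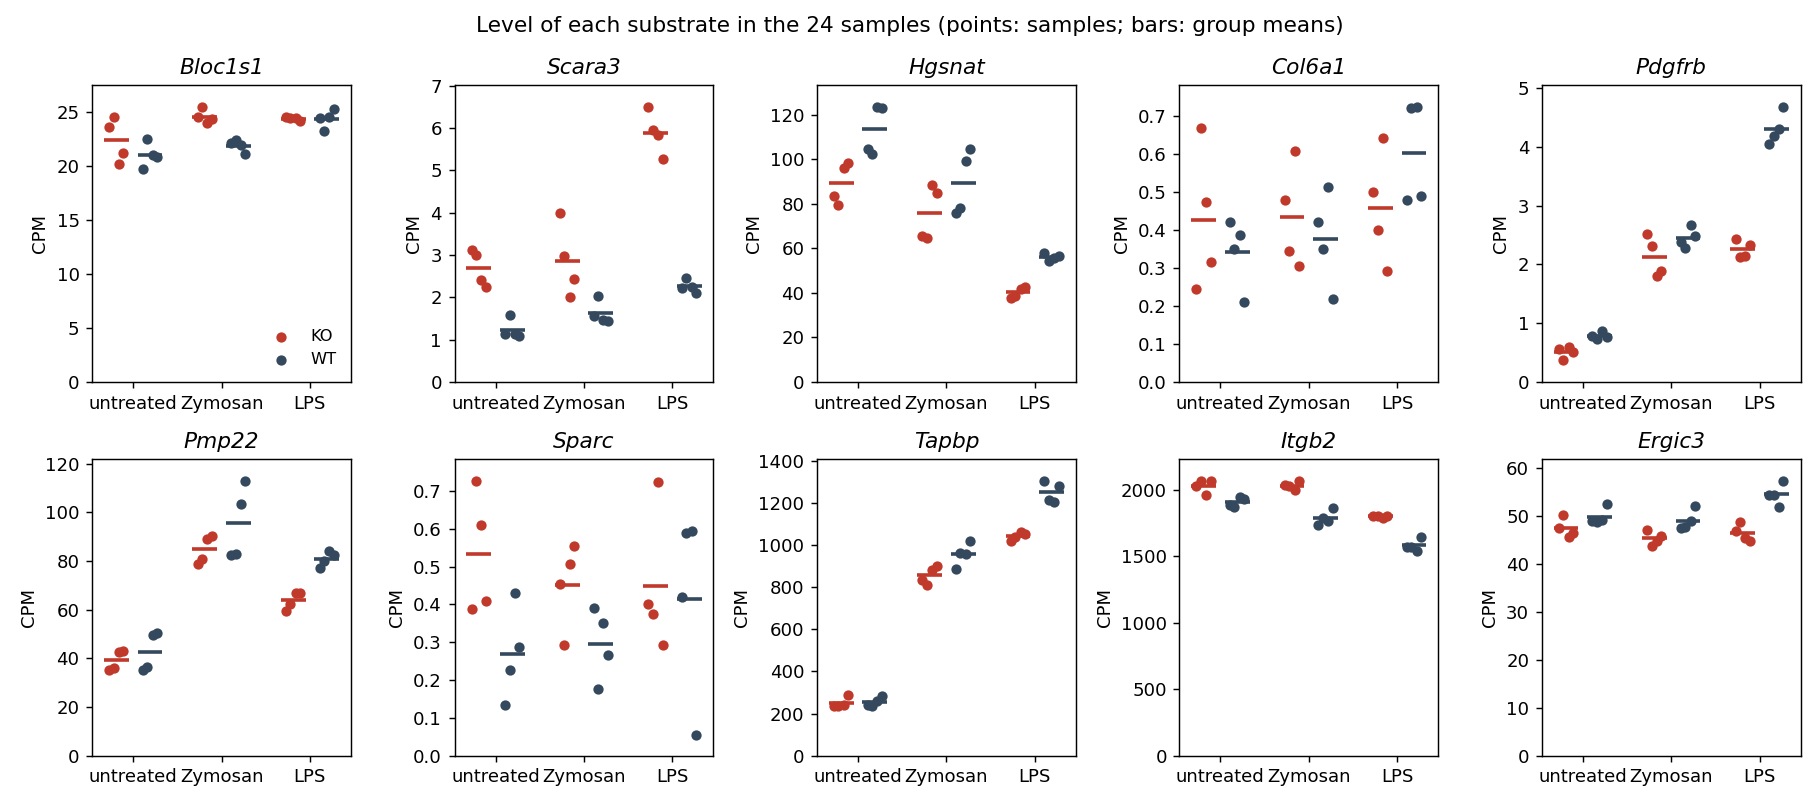
Level of each of the 10 substrates in the 24 samples, in CPM on a linear axis from 0, with untreated, Zymosan and LPS samples along the x axis, KO (red) left of WT (dark blue), 1 point per sample in the order of replicates and a bar at the group mean. The mean of Scara3 lies higher in KO in each condition, although its samples overlap with Zymosan. Pdgfrb lies lower in KO without stimulation and with LPS, and Bloc1s1 with LPS is at 24.1 to 24.5 CPM in KO and 23.2 to 25.3 CPM in WT.

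The comparison of KO with WT asks whether transcripts that the RNase is known to cut are higher in cells labelled as lacking it. Of the substrates called, some were higher and others lower in KO. Genotype differences are log2 fold changes of KO over WT with their standard error from edgeR's quasi-likelihood fit to all 24 samples, and a gene was called at an adjusted p under 0.05 (Benjamini-Hochberg over all 14188 genes tested). In untreated cells 1 of the 10 substrates was called higher (Scara3) and 2 lower (Hgsnat and Pdgfrb), with 9.95% of all genes called, 4.31% higher and 5.64% lower. With Zymosan 3 were called higher (Scara3, Itgb2 and Bloc1s1) and 0 lower, against 22.1% of all genes (10.6% higher, 11.4% lower). At an unadjusted p under 0.05, 3 were lower with Zymosan (Hgsnat, Tapbp and Ergic3), and DESeq2 called 0 lower. With replicate number as a block 3 were called higher and 4 lower with Zymosan (Hgsnat, Tapbp, Pmp22 and Ergic3, adjusted p 0.00472 to 0.0476), so the absence of lower calls depends on that setting. With LPS 2 were called higher (Scara3 and Itgb2) and 5 lower (Pdgfrb, Hgsnat, Pmp22, Tapbp and Ergic3), against 33.9% of all genes (15.6% higher, 18.2% lower).

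Averaged over the 3 conditions, 3 substrates were higher in KO (Scara3, Itgb2 and Bloc1s1), 5 were lower (Pdgfrb, Hgsnat, Pmp22, Tapbp and Ergic3) and Sparc and Col6a1 were not called, where 40.4% of all genes were called (20.4% higher, 20.1% lower). The median log2 fold change of the 10 was 0.03 untreated, 0.03 for Zymosan and -0.25 for LPS; over all genes tested it was 0.0042, -0.0040 and 0.0075. Scara3 and Itgb2 lay above 0 in all 3 conditions, and Hgsnat and Tapbp below 0, although Tapbp in untreated cells was at -0.02 and turned positive when a sample was left out. Pmp22, Pdgfrb and Ergic3 lay below 0 in all 3 conditions too, but in replicates 1 and 2 alone Pmp22 and Ergic3 untreated and Pdgfrb with Zymosan lay above it. Bloc1s1 and Sparc also lay above 0 in all 3 conditions, but with LPS (0.0013 and 0.10) both changed sign when a sample was left out. With replicate pairs summed, 1 substrate was called in untreated cells (Scara3), 0 with Zymosan, 3 with LPS (Scara3 higher, Pdgfrb and Ergic3 lower) and 5 over the mean of conditions.

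**Figure D2:**
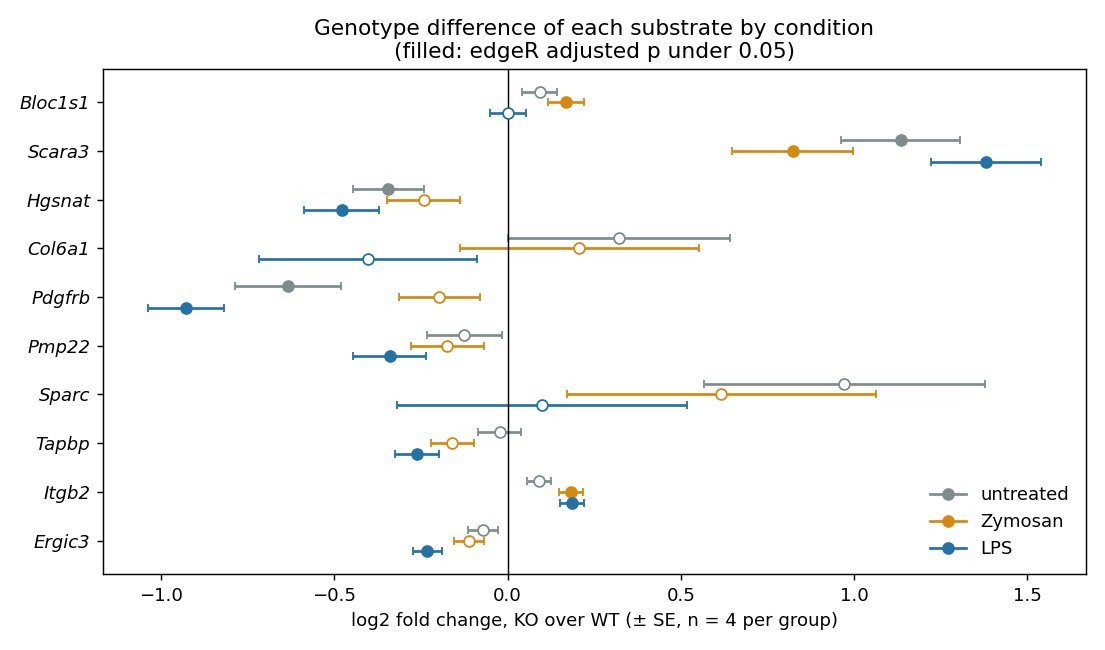
Genotype difference of each substrate: log2 fold change of KO over WT on the x axis with bars of ± SE (n = 4 samples per group), for untreated (grey), Zymosan (orange) and LPS (blue) samples, filled where the edgeR adjusted p was under 0.05. Scara3 is at 1.13, 0.82 and 1.38, Pdgfrb at -0.63, -0.20 and -0.93, and the wide bars of Col6a1 and Sparc reflect their low counts.

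Bloc1s1 (ENSMUSG00000090247, chr10:128917882-128924035, minus strand) encodes a subunit shared by BLOC-1 and BORC, complexes that serve lysosome-related organelles and lysosome positioning, and its mRNA is the most widely used reporter of RIDD. In untreated cells it was at 23.6, 24.5, 20.2 and 21.1 CPM in KO samples and 19.7, 22.4, 21.0 and 20.8 CPM in WT samples. These overlapped, with a log2 fold change of 0.09 ± 0.05 (edgeR adjusted p = 0.323). With Zymosan it was at 24.5, 25.4, 23.9 and 24.3 CPM in KO and 22.1, 22.4, 21.9 and 21.1 CPM in WT, which did not overlap, and the difference of 0.17 ± 0.05 was called (adjusted p = 0.0212), a 1.12-fold higher level. LPS samples were at 24.5, 24.4, 24.4 and 24.1 CPM in KO and 24.4, 23.2, 24.5 and 25.3 CPM in WT. The 95% interval of the LPS difference ran from -0.11 to 0.11 on the log2 scale, so a difference beyond 0.11 in either direction lies outside it.

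The Zymosan call on Bloc1s1 was lost without KO replicate 2 (adjusted p = 0.0732), without WT replicate 4 (0.0661) and with replicate pairs summed (0.241). In untreated cells replicates 1 and 2 alone gave 0.19 (adjusted p = 0.0257) and replicates 3 and 4 alone gave -0.01 (0.955). P-values from a pair alone measure only the spread within pairs. The exons of Bloc1s1 overlap those of Rdh5 on the same strand, which had at most 63 counts in a sample where Bloc1s1 had at least 706. Of the genes tested, the 5 whose log2 CPM followed Bloc1s1 most closely over the 24 samples were Rps20 (Pearson r = 0.87), Pycard (0.85), Gm9843 (0.85), Spsb2 (0.84) and Tppp3 (0.84) as a description of samples that share genotype and treatment groups. Rps20 encodes a ribosomal protein and Pycard the inflammasome adaptor ASC. Among the other substrates, r with Bloc1s1 was 0.68 for Scara3 and -0.74 for Hgsnat.

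Scara3 (ENSMUSG00000034463, chr14:65919394-65953935, minus strand) encodes a class A scavenger receptor of the ER and Golgi. It was the member with the largest difference between genotypes in each condition. In untreated cells it was at 3.11, 3.01, 2.40 and 2.24 CPM in KO samples and 1.13, 1.57, 1.12 and 1.07 CPM in WT samples, with no overlap. That is a 2.19-fold higher level in KO (log2 fold change 1.13 ± 0.17, edgeR adjusted p = 4.02e-05). After LPS the values were 6.49, 5.94, 5.83 and 5.25 CPM in KO and 2.22, 2.46, 2.25 and 2.09 CPM in WT, 2.60-fold higher in KO (1.38 ± 0.16, adjusted p = 3.21e-07). The Zymosan groups overlapped, since KO replicate 3 at 2.00 CPM lay just under WT replicate 2 at 2.03 CPM; the others were 3.99, 2.98 and 2.44 CPM in KO and 1.57, 1.46 and 1.45 CPM in WT. The Zymosan difference of 0.82 ± 0.18 was called (adjusted p = 0.00117), but not with replicate pairs summed (0.0584). With pairs summed the untreated and LPS differences remained called.

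Scara3 had 51 to 259 counts per sample. Stromal markers moved in the same direction in part: of 10 fibroblast and stroma markers 7 were tested, and 2 were called higher in KO in each condition. Thy1, a surface marker of fibroblasts and some lymphoid cells, was 0.98 ± 0.24, 0.85 ± 0.23 and 1.65 ± 0.24 higher on the log2 scale in untreated, Zymosan and LPS samples (edgeR adjusted p = 0.00612, 0.00973 and 1.09e-05). The other called marker was Dcn in untreated cells (1.21 ± 0.27), Col1a1 with Zymosan (1.498 ± 0.391) and Fn1 with LPS (0.33 ± 0.10). In each condition 0 were called lower. However, 1 was lower untreated at an unadjusted p under 0.05 (edgeR), and 3 of the 7 lay below 0 with LPS. Dcn, Col1a1, Col1a2 and Col3a1 were at a mean of at most 1.85 CPM in any group. The sum over the list, which Fn1 dominates, overlapped between genotypes untreated (1760.5 to 2168 CPM in KO, 1988 to 2774 CPM in WT). It also overlapped with Zymosan (1679 to 2163 CPM in KO, 1757.5 to 2044 CPM in WT). With LPS the sum was 1901 to 2012 CPM in KO and 1362 to 1651 CPM in WT. The part of these markers in the Scara3 difference was not tested.

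Ergic3 (ENSMUSG00000005881, chr2:156008045-156018279, plus strand) encodes a cargo receptor that cycles between the ER and the Golgi. With LPS it was at 46.9, 48.6, 45.3 and 44.8 CPM in KO samples and 54.4, 54.4, 51.8 and 57.3 CPM in WT samples. The KO samples all lay below the WT samples, and the level was 1.17-fold lower (log2 fold change -0.23 ± 0.04, edgeR adjusted p = 0.000191; 5 of 10 substrates lay wholly below WT with LPS, as did 19.1% of all genes). With Zymosan it was at 47.1, 43.7, 44.8 and 45.7 CPM in KO and 47.4, 47.6, 48.8 and 52.1 CPM in WT, not overlapping yet not called (-0.11 ± 0.04, adjusted p = 0.0652; 1 substrate lay wholly below WT with Zymosan, as did 11% of all genes). Untreated samples overlapped, at 47.5, 50.2, 45.6 and 46.3 CPM in KO and 49.0, 48.7, 49.1 and 52.5 CPM in WT (adjusted p = 0.373). The LPS call held with replicate pairs summed.

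Hgsnat (ENSMUSG00000037260, chr8:25944453-25976753, minus strand) encodes the lysosomal membrane enzyme that acetylates heparan sulfate during its breakdown. In untreated cells it was at 83.3, 79.7, 96.3 and 98.6 CPM in KO samples and 105, 102, 124 and 123 CPM in WT samples. All KO samples lay below all WT samples, and the difference was -0.34 ± 0.10 (edgeR adjusted p = 0.0321). LPS samples were at 37.8, 38.7, 41.8 and 42.5 CPM in KO and 57.8, 54.3, 55.5 and 56.4 CPM in WT, 1.39-fold lower in KO (-0.48 ± 0.11, adjusted p = 0.00125). With Zymosan the groups overlapped, at 65.6, 64.8, 88.3 and 85.0 CPM in KO and 76.1, 78.2, 99.3 and 105 CPM in WT (-0.24 ± 0.10, adjusted p = 0.102).

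Replicates 1 and 2 of Hgsnat lay below replicates 3 and 4 in both genotypes of the untreated and Zymosan samples. Within the first pair alone the Zymosan difference was -0.24 (edgeR adjusted p = 0.0002), and within the second -0.23 (0.0014). In untreated cells the 2 pairs gave -0.35 (3.76e-06) and -0.34 (4.72e-05). These p-values measure only the spread within pairs of close samples, which may be technical. With the pairs summed, neither the untreated (0.440) nor the LPS difference (0.0694) was called, and the untreated call was also lost without KO replicate 1 or 2 or WT replicate 3 or 4 (adjusted p 0.101 to 0.126).

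Tapbp (ENSMUSG00000024308, chr17:33915899-33929292, plus strand) encodes tapasin, which holds MHC class I molecules at the peptide transporter in the ER. In untreated cells it was at 237, 237, 239 and 289 CPM in KO samples and 239, 236, 261 and 282 CPM in WT samples, overlapping (edgeR adjusted p = 0.897). After LPS the values were 1020, 1038, 1060 and 1054 CPM in KO and 1305, 1213, 1203 and 1281 CPM in WT. The LPS groups did not overlap, and the level was lower in KO (log2 fold change -0.26 ± 0.06, adjusted p = 0.00216). With Zymosan it was at 832, 809, 882 and 902 CPM in KO and 887, 964, 957 and 1017 CPM in WT (-0.16 ± 0.06, adjusted p = 0.0708). With replicate pairs summed the LPS difference was not called (0.0705). Exons of Tapbp overlap Zbtb22 on the same strand, with at most 1326 counts in a sample where Tapbp had at least 10573, and an antisense gene, Gm19412, which is not in the table used here; whether reads were counted by strand is not given in the sources used here.

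Itgb2 (ENSMUSG00000000290, chr10:77530252-77565708, plus strand) encodes CD18, the shared beta chain of the leukocyte integrins. Its differences were small but exceeded the spread between samples. With LPS it was at 1801, 1805, 1786 and 1799 CPM in KO samples and 1567, 1568, 1538 and 1646 CPM in WT samples, 1.14-fold higher in KO (log2 fold change 0.19 ± 0.03, edgeR adjusted p = 0.000178). With Zymosan it was at 2032, 2026, 1993 and 2062 CPM in KO and 1735, 1787, 1763 and 1861 CPM in WT (0.18 ± 0.03, adjusted p = 0.000347). Untreated samples were at 2026, 2061, 1961 and 2066 CPM in KO and 1880, 1865, 1944 and 1925 CPM in WT. Those samples did not overlap either, although the difference of 0.09 ± 0.03 was not called (adjusted p = 0.105); DESeq2 called it (adjusted p = 0.0122). With pairs summed the Zymosan and LPS differences were not called (0.121 and 0.0729), while the mean over conditions remained called. With Itgb2, 2 of the 10 substrates lay wholly above WT in each condition (Scara3 untreated and with LPS, Bloc1s1 with Zymosan), where 6.97% of all genes did so untreated, 9.78% with Zymosan and 15.3% with LPS. Of 7 neutrophil markers, cells that carry CD18 at a high level, 4 were called higher and 1 lower with LPS, with summed levels of 1536 to 1718 CPM in KO and 1189 to 1271 CPM in WT. With Zymosan 0 were called higher and 2 lower, and untreated 0 higher and 1 lower, and the sums of both conditions overlapped between genotypes. Of 8 DC markers 7 were tested, and 4 were called higher and 1 lower (Flt3) in each condition. With Zymosan the sum over all 8 was 6600 to 7042 CPM in KO and 5360 to 5623 CPM in WT. The part of these markers in the Itgb2 difference was not tested.

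Pdgfrb (ENSMUSG00000024620) encodes the receptor for platelet-derived growth factor B, a tyrosine kinase of mesenchymal cells. It was rare here, with 19 to 172 counts per sample. Untreated samples were at 0.553, 0.373, 0.588 and 0.503 CPM in KO samples and 0.774, 0.724, 0.862 and 0.766 CPM in WT samples, 1.55-fold lower in KO (log2 fold change -0.63 ± 0.15, edgeR adjusted p = 0.00913). LPS samples were at 2.43, 2.12, 2.14 and 2.33 CPM in KO and 4.04, 4.18, 4.30 and 4.68 CPM in WT, 1.90-fold lower (-0.93 ± 0.11, adjusted p = 5.25e-07). Both comparisons had no overlap, and 2 of the 10 substrates, Hgsnat and Pdgfrb, lay wholly below WT in untreated cells, as did 7.56% of all genes. With Zymosan it was at 2.52, 2.31, 1.80 and 1.88 CPM in KO and 2.38, 2.28, 2.68 and 2.49 CPM in WT (-0.20 ± 0.12, adjusted p = 0.247). Replicates 1 and 2 alone gave 0.06 with Zymosan, and replicates 3 and 4 alone gave -0.48. The LPS call held with replicate pairs summed, and the untreated call did not (0.140); it was also lost without KO replicate 2 (0.0899) and in a fit of the untreated groups alone (0.0558).

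Pmp22 (ENSMUSG00000018217, chr11:63128982-63159547, plus strand) encodes a tetraspan membrane protein best known from myelin. With LPS it was at 59.5, 62.4, 67.0 and 66.6 CPM in KO samples and 77.0, 80.0, 84.0 and 82.4 CPM in WT samples. The KO samples all lay lower, by 1.27-fold (log2 fold change -0.34 ± 0.11, edgeR adjusted p = 0.0150), a call that was lost with replicate pairs summed (0.185). Untreated samples were at 35.2, 36.2, 42.6 and 43.0 CPM in KO and 35.1, 36.3, 49.5 and 50.2 CPM in WT, so that the genotypes matched in replicates 1 and 2 and differed in replicates 3 and 4. Each pair alone gave 0.0012 (adjusted p = 0.992) and -0.21 (0.00840), with p-values that measure only the spread within pairs. With Zymosan it was at 78.8, 80.9, 89.0 and 90.2 CPM in KO and 82.5, 83.0, 103 and 113 CPM in WT (-0.17 ± 0.11, adjusted p = 0.261).

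Sparc (ENSMUSG00000018593, chr11:55394500-55423183, minus strand) encodes a secreted glycoprotein of the matrix, and Col6a1 (ENSMUSG00000001119, chr10:76708792-76726168, minus strand) a chain of collagen VI. Sparc was at 0.389, 0.727, 0.610 and 0.410 CPM in untreated KO samples and 0.133, 0.227, 0.431 and 0.287 CPM in untreated WT samples. These overlapped in a single WT sample, and the log2 fold change of 0.97 ± 0.41 was not called (edgeR adjusted p = 0.156). Over the mean of conditions Sparc was at 0.56 ± 0.24 (adjusted p = 0.0703), a difference that was called without WT untreated replicate 3 (0.0388) or WT LPS replicate 3 (0.0492). Col6a1 was at 0.246, 0.668, 0.475 and 0.317 CPM in untreated KO samples and 0.420, 0.352, 0.388 and 0.211 CPM in untreated WT samples, and over the mean of conditions its difference was 0.04 ± 0.19. Its 95% interval ran from -0.34 to 0.43, which leaves room for changes in either direction at this depth.

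The response to stimulation was compared within each genotype. Zymosan and LPS samples of a genotype are set against the same untreated samples. In KO cells 4 of the 10 were called higher and 1 lower with Zymosan, where 66.8% of all genes were called, 31.6% higher and 35.2% lower; DESeq2 called 4 higher and 0 lower, and summed pairs gave 3 in all. LPS gave 5 higher and 2 lower in KO, against 71.8% of all genes (34.4% higher, 37.4% lower). In WT cells 3 were called higher and 2 lower with Zymosan, against 70.2% of all genes (34.3% higher, 35.9% lower). LPS gave 7 higher and 2 lower in WT, against 75.6% of all genes (35.9% higher, 39.7% lower).

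Tapbp, Pdgfrb and Pmp22 rose under both stimuli in both genotypes, and Hgsnat fell. For Tapbp the log2 fold change with Zymosan was 1.77 ± 0.06 in KO and 1.91 ± 0.06 in WT. With LPS it was 2.06 ± 0.07 in KO and 2.30 ± 0.07 in WT, a 4.17-fold and a 4.91-fold rise. Pdgfrb rose by 2.09 ± 0.14 in KO and 1.65 ± 0.13 in WT with Zymosan, and by 2.16 ± 0.14 in KO and 2.46 ± 0.12 in WT with LPS. Even so, its mean in the LPS groups stayed at 0.412 CPM per kb in KO and 0.785 in WT. Pmp22 rose more with Zymosan (1.11 ± 0.11 in KO, 1.16 ± 0.11 in WT) than with LPS (0.70 ± 0.11 in KO, 0.92 ± 0.11 in WT), although the 2 stimuli were not tested against each other.

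Hgsnat fell by 0.24 in KO (SE 0.10) and by 0.34 in WT (SE 0.10) with Zymosan, and by 1.15 (SE 0.11) in KO and 1.02 (SE 0.11) in WT with LPS. Scara3 rose with LPS by 1.13 ± 0.15 in KO and 0.88 ± 0.18 in WT, and was not called with Zymosan at 0.10 ± 0.16 in KO and 0.41 ± 0.19 in WT (edgeR adjusted p = 0.600 and 0.0543). The WT response of Scara3 to Zymosan was called with replicate number as a block (adjusted p = 0.0161), by DESeq2 (0.0359) and in 3 of 8 fits without 1 sample of those groups (without untreated replicate 2 or Zymosan replicate 3 or 4, adjusted p 0.0159 to 0.049986). Bloc1s1 rose slightly with LPS, by 0.12 ± 0.05 in KO and 0.21 ± 0.05 in WT. With Zymosan it rose in KO (0.13 ± 0.05, adjusted p = 0.0237) and was at 0.06 ± 0.05 in WT (0.325). Itgb2 fell with LPS, by 0.17 in KO (SE 0.03) and by 0.27 in WT (SE 0.03). With Zymosan it fell by 0.09 in WT (SE 0.03, adjusted p = 0.0210) and its KO interval was -0.07 to 0.07. With LPS in WT cells Ergic3 (0.13 ± 0.04, adjusted p = 0.00854) and Col6a1 (0.83 ± 0.32, 0.0217) were called higher, while in KO cells they were at -0.03 ± 0.04 and 0.11 ± 0.32. Sparc was not called under either stimulus in either genotype.

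The small responses were the least stable. With replicate pairs summed, the calls on Bloc1s1 in KO (adjusted p = 0.149 with Zymosan, 0.176 with LPS), Hgsnat with Zymosan (0.217 in KO, 0.0832 in WT), Itgb2 with Zymosan in WT (0.258) and Ergic3 with LPS in WT (0.0750) were lost. The Col6a1 call with LPS in WT was lost without WT untreated replicate 4 (0.0829) or without WT LPS replicate 2 (0.0641) or 3 (0.0663).

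**Figure D3:**
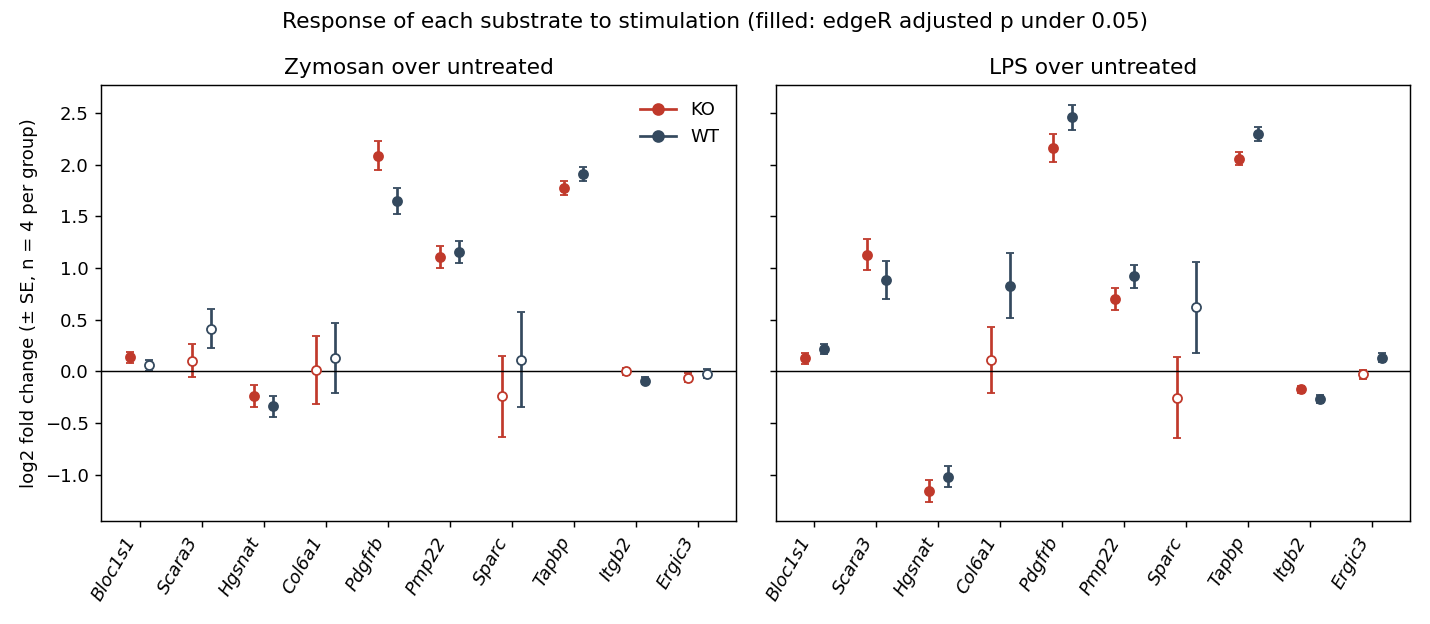
Response of each substrate to Zymosan (left) and LPS (right): log2 fold change of stimulated over untreated samples on the y axis with bars of ± SE (n = 4 samples per group), KO (red) left of WT (dark blue), filled where the edgeR adjusted p was under 0.05. Pdgfrb and Tapbp lie between 1.65 and 2.46 in every panel and genotype, and Hgsnat lies below 0 throughout.

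Whether the response itself differed between genotypes was tested as an interaction. By edgeR 0 of the 10 substrates were called for Zymosan (1.82% of all genes) and 0 for LPS (10.4%). At an unadjusted p under 0.05 there was 1 for Zymosan (Pdgfrb, 0.44 ± 0.19, adjusted p = 0.327) and 2 for LPS (Tapbp and Ergic3), and DESeq2 called 0 and 1. The DESeq2 call was Tapbp (adjusted p = 0.0459). By edgeR its LPS response differed by -0.24 ± 0.09 in KO and was not called (adjusted p = 0.0873), but was with replicate number as a block (0.0163). Ergic3 was at -0.16 ± 0.06 (edgeR adjusted p = 0.0927). For Scara3 the difference in LPS response was 0.25 with a 95% interval of -0.24 to 0.73, and for Bloc1s1 -0.09 with an interval of -0.24 to 0.06. For Col6a1 it was -0.72 with an interval of -1.65 to 0.20. The difference in Zymosan response of Bloc1s1 was 0.08, with an interval of -0.07 to 0.23.

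Related gene lists place these values. The lists were described by counts and medians only. Of all genes tested, 4.31% untreated, 10.6% with Zymosan and 15.6% with LPS were called higher in KO. The shares called lower were 5.64%, 11.4% and 18.2%. Other transcripts reported as decay substrates, chiefly from other tissues or species, numbered 11, of which 6 were tested. Untreated, 0 were called in either direction (0 at an unadjusted p under 0.05 and 0 by DESeq2). With Zymosan 1 was higher in KO and 0 lower, and with LPS 3 were higher and 0 lower; at an unadjusted p and by DESeq2 these counts were the same. They were Diexf (Utp25, a nucleolar protein; 0.58 ± 0.08 with Zymosan and 0.32 ± 0.09 with LPS), Tnfrsf10b (the TRAIL receptor; 0.37 ± 0.12 with LPS) and Per1 (a clock gene; 0.20 ± 0.07 with LPS). With replicate pairs summed 0 of the 6 were called with LPS.

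XBP1s target genes, the other output of the RNase, changed in 1 direction. Of 26 genes, 24 were lower in KO in each condition and 0 were higher, with median log2 fold changes of -0.50 untreated, -0.57 with Zymosan and -0.71 with LPS. At an unadjusted p under 0.05, and by DESeq2, 0 were higher. Of all genes, 5.64% untreated, 11.4% with Zymosan and 18.2% with LPS were called lower. Dnajb9, an ER co-chaperone, was lower, at -1.45 ± 0.08 untreated, -2.19 ± 0.09 with Zymosan and -2.48 ± 0.09 with LPS. Sec24d, a COPII coat subunit, was at -1.67 ± 0.09, -1.71 ± 0.10 and -1.99 ± 0.09 in the same order. Xbp1 itself, counted over spliced and unspliced forms together, averaged 257 ± 12 CPM in untreated KO samples and 243 ± 15 CPM in untreated WT samples, and 238 ± 4.3 CPM in LPS-treated KO samples and 238 ± 3.3 CPM in LPS-treated WT samples (SD, n = 4 each). It was not called in any condition (edgeR adjusted p = 0.361 untreated, 0.176 with Zymosan, 0.973 with LPS).

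**Figure D4:**
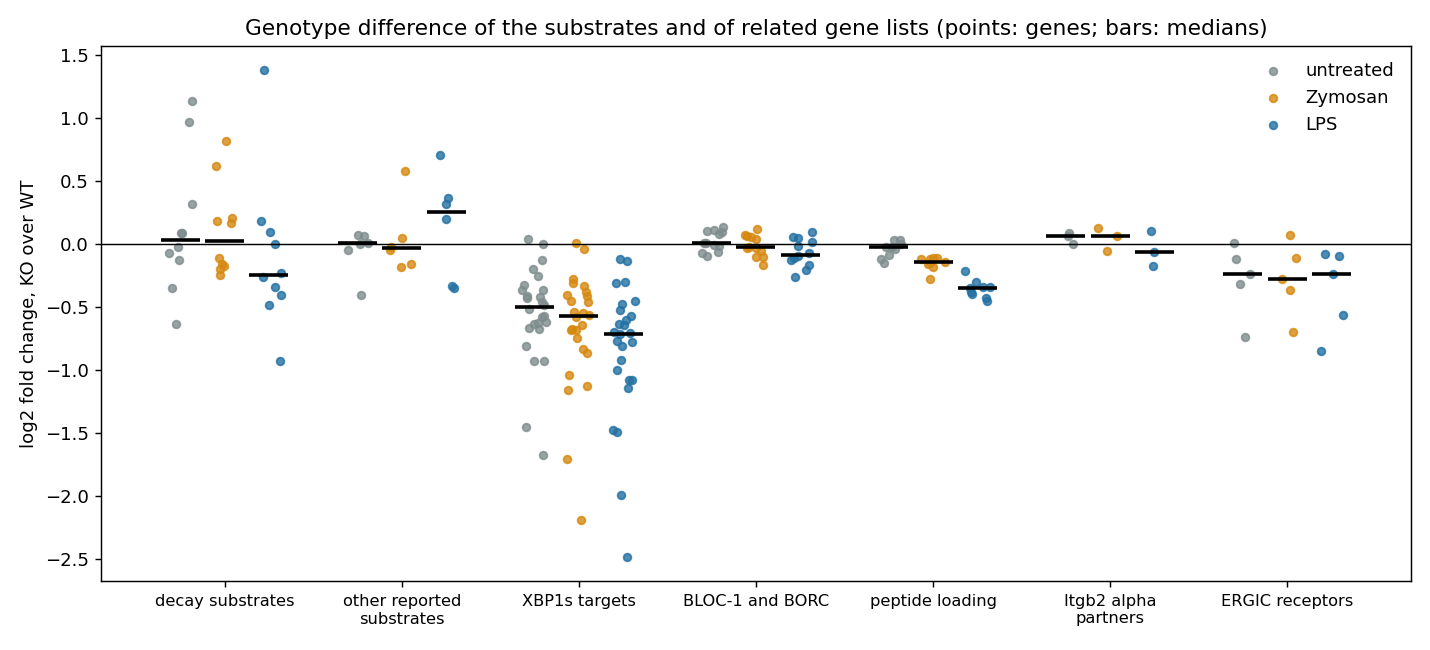
Genotype difference of the 10 substrates and of related gene lists: log2 fold change of KO over WT on the y axis, 1 point per tested gene, for untreated (grey), Zymosan (orange) and LPS (blue) samples, with black bars at the medians. Of the 26 XBP1s targets 24, 25 and 26 lie below 0, with medians of -0.50, -0.57 and -0.71, while the substrates spread on both sides of 0.

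Partners of single substrates were read the same way. Of 9 genes of peptide loading besides Tapbp, 0 were called untreated (2 lower at an unadjusted p under 0.05, 0 by DESeq2), 3 were lower in KO with Zymosan and 9 with LPS, with medians of -0.03, -0.14 and -0.34. With Zymosan 8 were lower at an unadjusted p under 0.05 and 4 by DESeq2, and leaving out 1 sample gave 1 to 5. With LPS the largest falls were of Pdia3, the oxidoreductase ERp57 (by 0.45, SE 0.05), the class I gene H2-D1 (by 0.43, SE 0.06) and Tapbpl, the tapasin-related protein (by 0.40, SE 0.06). Tapbp at -0.26 thus lay among them, and 7 of the 9 were called in the LPS interaction, as were 10.4% of all genes. With replicate pairs summed, hardly any gene of the whole table was called in that interaction. Zymosan counts on this list fell to 0 with replicate pairs summed.

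Cargo receptors besides Ergic3 gave 3 lower of 5 in every condition. Lman1 (ERGIC-53) was at -0.73, -0.70 and -0.85 (SE 0.04 each) for untreated, Zymosan and LPS samples, and its cofactor gene Mcfd2 at -0.23, -0.28 and -0.24 (SE 0.03 each). Lman2, another lectin of the early secretory pathway, was at -0.31, -0.36 and -0.56 (SE 0.04, 0.05 and 0.05). Lman1, Lman2 and Mcfd2 thus changed in all 3 conditions, and Ergic3 was called with LPS.

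BLOC-1 and BORC subunits besides Bloc1s1 were little changed: of 12, edgeR called 0 untreated, 0 with Zymosan and 3 lower with LPS, where 18.2% of all genes were lower. At an unadjusted p under 0.05 there were 2 higher untreated and 0 with Zymosan, and DESeq2 called 1 higher and 0. With LPS the 3 were Bloc1s4 (-0.26 ± 0.08), Dtnbp1, the dysbindin gene (-0.20 ± 0.06), and Bloc1s6, the pallidin gene (-0.13 ± 0.04), and with replicate pairs summed 0 were called. Bloc1s1 was at 0.00 ± 0.05 there.

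Of the 4 alpha chains that pair with Itgb2, 3 were tested and 0 were called untreated or with Zymosan (0 and 1 at an unadjusted p under 0.05, 0 and 0 by DESeq2). With LPS Itgam (CD11b) was higher at 0.11 ± 0.04 and Itgal (CD11a) lower at -0.18 ± 0.04, and with replicate pairs summed 0 were called. Of 8 matrix and growth factor partners of Col6a1, Pdgfrb and Sparc, 7 were tested and 0 were called untreated (0 at an unadjusted p under 0.05, 0 by DESeq2). With Zymosan and with LPS Pdgfa, a ligand chain, was higher in KO (0.55 ± 0.09 and 0.65 ± 0.10) and Col4a2, a collagen IV chain, lower (-0.31 ± 0.09 and -0.43 ± 0.09). Of all genes, 22.1% were called with Zymosan and 33.9% with LPS.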

How the data were processed

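Gene counts of 24 RNA-seq samples were used as deposited by the authors, 1 whole number per gene and sample. The tools named, per the submitters' processing notes, are RSEM 1.2.31, Bowtie2 and DESeq2, with the mm10 build; what each did is not given. RSEM shares out reads that map to several genes, so near-identical copies are less certain. The plan allowed for rounding estimated counts, which was not needed. GENCODE M21 named 37570 of 38887 genes (96.6%). Genes were filtered with filterByExpr (14188 tested), scaled by TMM factors of 0.880 to 1.19 and fitted with a mean per group in edgeR 4.0.16 (R 4.3.3). CPM uses the scaled library totals. Tests are edgeR's quasi-likelihood F tests with Benjamini-Hochberg adjustment over all genes tested within each comparison, called under 0.05.

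The substrates, lists, tests and alternatives were chosen with earlier results of these data known. Named genes are the 10 substrates, Ern1, Xbp1, up to 3 called genes per list and comparison with the largest change, and the 5 genes most alike Bloc1s1. The marker genes Col1a2 and Col3a1, at low level, and Itgax, at high level, were named after their values were seen. Some genes the rule allows are left out. Alternatives were DESeq2 1.42.0, its size factors, no filter, a block for replicate number, fits of only the groups compared, replicate pairs summed and leaving out each sample; a term for the pairs and each pair alone were added after seeing the data. Same-numbered Zymosan and untreated samples of a genotype deviated together (every r over 0.1, in 4 of 4 pairs each). Same-numbered KO and WT samples, and LPS and untreated samples, did not all do so. Samples that share the pair 1-2 or 3-4 deviated together as well. KO Zymosan replicate 1 had r = 0.296 with KO untreated replicate 2 and 0.125 with KO untreated replicate 1. Untreated KO replicate 1 had r = 0.199 with WT replicate 2 and -0.119 with WT replicate 3. Whether numbers pair samples cannot be told from these values. The procedure was run on simulated data with known changes in KO over WT untreated. Those data held no close pairs of samples, and no changes were planted in genes with low counts. The simulation therefore does not cover the paired structure, the interactions, Sparc or Col6a1.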

Additional observations from a re-analysis of the deposited data

Results flagged for a closer look

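Each group of 4 samples of each substrate (60 groups) was screened for a sample far from the other 3, and chance flags about 1 in 20 such groups. Scara3 in untreated WT samples had replicate 2 at 1.57 CPM, where the other 3 were at 1.07 to 1.13 CPM. Tapbp in untreated KO samples had replicate 4 at 289 CPM, where the other 3 were at 237 to 239 CPM. Ergic3 in untreated WT samples had replicate 4 at 52.5 CPM, where the other 3 were at 48.7 to 49.1 CPM.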

How the results depend on the processing

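Beside the calls given above, most values of the substrates kept their direction and their side of the threshold. Of 40 differences of KO over WT (10 substrates in 3 conditions and their mean), 40 kept direction and side without the filter on low counts, 38 under DESeq2 (1 call gained, 1 sign changed), 34 under the replicate block (6 gained) and 28 with replicate pairs summed, where 12 calls were lost; summing leaves 2 values per group. Deviations of same-numbered KO and WT samples had r of 0.0169 to 0.134, 3 of 12 over 0.1, which does not show pairing by number. The replicate block raised the substrates called with Zymosan to 7 (3 higher, 4 lower) and in the LPS interaction to 1. It raised all genes called in the interactions to 506 and 2396 (Zymosan, LPS). All genes called were 1411, 3134, 4805 and 5739 (untreated, Zymosan, LPS, mean) and 258 and 1482 (interactions). With pairs summed these were 418, 964, 1987 and 3126, then 0 and 5, and substrates called were 1, 0, 3 and 5, with 3 for Zymosan in KO and 3 in WT. A term for the pairs gave 6 substrates with Zymosan, 1 in the LPS interaction and 588 and 2487 genes in the interactions. Replicates 1 and 2 alone gave 6 substrates untreated, 5 with Zymosan, 5 in the LPS interaction, and 3251 genes untreated, 4727 with Zymosan and 1206 and 2975 in the interactions. Replicates 3 and 4 alone gave 5 substrates with Zymosan. Calls from a pair alone measure only the spread within pairs. DESeq2 gave 423 genes in the Zymosan interaction and 1 substrate in that of LPS. Fitting only the groups compared gave 154 genes in the Zymosan interaction and 3 substrates for Zymosan in KO. Leaving out 1 sample gave 1 to 3 substrates untreated, 2 to 5 with Zymosan, 3 to 5 for Zymosan in KO, 0 to 1 in the LPS interaction and 125 to 350 genes in the Zymosan interaction. Values near 0 changed sign: Bloc1s1 with LPS was -0.0081 with DESeq2, -0.0081 with its size factors and -0.038 in replicates 3 and 4, where untreated it was -0.0093. Itgb2 for Zymosan in KO was 0.014 with DESeq2 and with its size factors, 0.026 in only the groups compared, 3.4e-05 with pairs summed and 0.0011 in replicates 3 and 4. In replicates 1 and 2, Pmp22 untreated was 0.0012, Ergic3 untreated 0.0023, Pdgfrb with Zymosan 0.057, Sparc with LPS -0.39 and the Col6a1 mean -0.021; in replicates 3 and 4, Scara3 for Zymosan in KO was -0.058. With 1 sample left out, Bloc1s1 with LPS ran from -0.021 to 0.020, the Col6a1 mean from -0.061 to 0.11, Ergic3 for Zymosan in WT from -0.054 to 0.0033, Itgb2 for Zymosan in KO from -0.016 to 0.0087, Scara3 for Zymosan in KO from -0.11 to 0.23, Sparc with LPS from -0.27 to 0.33 and Tapbp untreated from -0.098 to 0.031. The cause of these changes was not tested. Depth limits Sparc and Col6a1.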
